A study of Mus musculus with 6 samples.

Results

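Mgarp, Fam162a, Higd1a and Higd2a encode small mitochondrial proteins, and their 4 genes are described here out of 13843 in a table of RNA levels from mouse embryonic heart ventricles. They were chosen by symbol, the first 3 because their genes are known to follow hypoxia-inducible factors (HIF) and Higd2a as a paralog of Higd1a for comparison. The choice was made with results of the same libraries known, so the differences between the groups are given for these 4 genes as a description, with no test. All 4 were in the table, and each had reads in all 6 libraries.

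Each library came from the ventricles of a single embryo at E12.5 (embryonic day, mid-gestation) on a C57BL/6 background. The 3 controls carried 2 floxed Vhl alleles and wild-type Nkx2.5 (Vhl flox/flox, Nkx2.5 +/+). The 3 libraries labelled knockout carried 2 floxed Vhl alleles and 1 Nkx2.5 allele with Cre recombinase (Vhl flox/flox, Nkx2.5 Cre/+), which is active in heart muscle progenitors. Cre and the loss of 1 intact Nkx2.5 allele go with the knockout label in every embryo, and floxed Vhl is shared by both groups. Per the labels, the embryos numbered 1 shared litter 1 and those numbered 2 shared litter 2, whereas control 3 was of litter 3 and knockout 3 of litter 4. The design text of the series counts 3 litters, so whether the libraries numbered 3 were littermates is uncertain.

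VHL tags the alpha subunits of HIF for destruction when oxygen is present, so that without VHL the factors persist and switch on their target genes in normal oxygen. The targets include genes whose products act in mitochondria, where they change respiration, movement or clearance of the organelle. Mgarp, also called HUMMR, is a membrane protein that binds the Miro proteins and is known for the transport of mitochondria in neurons. Fam162a, also called HGTD-P, is a mitochondrial protein linked to cell death in hypoxia. Higd1a and Higd2a share the HIG1 hypoxia-inducible domain and take part in the assembly of respiratory complexes, and of these Higd1a is the one named for its induction by low oxygen.

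Short promoter stretches show what the 4 genes hold near their starts, because HIF binds the core letters ACGTG and GCGTG. These letters were searched on both strands in 300 bases around each RefSeq start (250 before it and 50 from it on, GRCm38.p6). All 4 genes were matched by symbol to such a window. Capitals mark the matches, written 5′ to 3′ on the strand of the gene, so that CACGT and CACGC are the same cores on the opposite strand.
Mgarp, chr3:51396750-51396778, minus strand: gagcgggtcaggCACGTaacagcgacttc
Fam162a, chr16:36071595-36071684, minus strand: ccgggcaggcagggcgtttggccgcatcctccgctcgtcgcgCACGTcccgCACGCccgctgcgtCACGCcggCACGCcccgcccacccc
Higd1a, chr9:121857848-121857876, minus strand: ggtctagcctGCGTGCGTGgcgttcgcgg
Higd1a, chr9:121857747-121857765, minus strand: ccgcccaggcctCACGTct
Higd2a, chr13:54590150-54590178, plus strand: gcaatggcgcctGCGTGctacactcagca
The Mgarp stretch held the 1 match of its window. The Fam162a stretch is the whole gap of 90 bases between the annotated starts of Fam162a and of Ccdc58, its neighbour on the other strand, and held 4 of the 6 matches in the Fam162a window. The Higd1a window held 3 matches, of which 2 overlap as GCGTGCGTG. The Higd2a window also held 3 matches, all GCGTG, so the number of matches does not separate the comparison gene from the other 3. ACGTG was present in the windows of Mgarp, Fam162a and Higd1a and was not found in that of Higd2a. Of 32851 windows of this length, 43.8% held at least 1 match and 8.93% at least 3, while 19.6% held ACGTG and 32.4% GCGTG. The windows of Fam162a and Higd1a were rich in G and C (72.3% and 72.7%), beside 60.7% for Mgarp, 54.3% for Higd2a and a median of 52.7% over all windows. By the annotation of GENCODE M21, all 3 Higd1a matches lay in stretches that overlap exons of Higd1a itself and of the antisense gene Gm47112, 2 Higd2a matches in stretches of an exon of Nop16, and the 2 Fam162a matches outside the printed gap in stretches of exons, 1 of Ccdc58 and 1 of Fam162a. The Mgarp match, the printed Higd2a match and the 4 Fam162a matches of the gap overlapped no exon. A match of 5 letters is not evidence of binding.

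Values are the deposited ones, read counts scaled by 1 factor per library, over 9067805 to 12592902 recovered reads a library. The targeted gene checked the labels first. The Vhl value of controls 1 to 3 was 33.7, 36.3 and 38.6, and knockouts 1 and 2, called the knockout pair below, had 11.1 and 10.3. For the library labelled knockout 3 it was 34.5, inside the control range and against the label. Hif1a, an HIF alpha subunit gene, was also named for this check. Its value was 457, 405 and 447 in controls 1 to 3, 185 and 163 in the knockout pair and 473 in the library labelled knockout 3. The log2 difference of Hif1a was -1.32 (limma adjusted p = 0.00025), and -0.84 with all 6 libraries. That library is shown apart below, and the differences of the 4 genes are given with and without it. When it was kept, no gene passed limma's test, and log2 differences with it kept are given for part of the other genes. Leaving it out was decided on its Vhl value, so every comparison of the pair with the controls rests in part on that choice. For the labelled tissue, all 8 cardiac muscle markers were present. None of the 8 passed the test between the groups, where 4.25% of all genes did, so this count is near that of genes at large. The summed level of the 8 was 22643 to 27514 in controls and 24071 and 22847 in the knockout pair. Myh7 made up the largest part of that sum, at 10165 to 13327 in controls and 12170 and 11345 in the knockout pair. The median log2 difference of the 8 was -0.21, beside -0.01 over all genes, and 2 of the 8 were above 0. Myl2, Ryr2 and Nkx2-5 lay below all controls in both knockouts, as 17.0% of all genes did. Of these, Nkx2-5 has 1 allele with Cre by design. In bulk tissue, fewer cells of a type and less RNA per cell cannot be told apart.

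Mgarp (ENSMUSG00000037161, chromosome 3, 51388412 to 51396738 on GRCm38) had few reads in control ventricles. Its value was 2.66, 7.80 and 4.62 in controls 1 to 3, 81.2 in knockout 1, 65.9 in knockout 2 and 5.31 in the library labelled knockout 3. Both knockouts stood far above every control, and the library labelled knockout 3 stood among the controls. The mean of the knockout pair was 14.6 times the control mean of 5.03 ± 2.595 (SD, n = 3). On the scale of log2(value + 1), which understates changes of low genes, the difference was 3.71 ± 0.32 (SE), and 2.53 ± 0.89 with the library labelled knockout 3 kept. By the size of that difference Mgarp was number 9 of all genes in the table.

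The low control level of Mgarp varied between embryos by more than counting error. The 3 controls rested on 24, 93 and 44 reads, and the exact Poisson 95% intervals, which cover counting error only, ran from 1.71 to 3.96 in control 1 and from 6.30 to 9.56 in control 2. These 2 intervals do not overlap. The coefficient of variation over the controls was 51.6%, which exceeded that of 93.9% of the 2440 genes whose control mean was at most 2 times higher or lower, with a median of 16.6% among them. The same order, control 2 highest and control 1 lowest, was seen for Cox4i2 (0.444, 2.35 and 1.05 in controls 1 to 3) and Ndufa4l2 (0.666, 2.60 and 1.68), a pair of hypoxia-linked respiratory chain genes. The cushion mesenchyme markers Twist1 (1.11, 23.8 and 14.6) and Postn (93.9, 292.5 and 240.5) had that order too, as did Sox9. The other 3 of the 6 measured cushion markers did not, with control 2 lowest for Col1a1 (335, 293 and 379) and Scx (1.22, 0.923 and 1.36) and control 3 highest for Col1a2 (281, 294 and 366). In the knockout pair Twist1 was at 4.20 and 18.2 and Postn at 280 and 205, where Mgarp was the higher in knockout 1. The order of controls seen for Mgarp was also that of the pericyte markers Pdgfrb and Rgs5 and of the endothelial marker Esam. Other measured pericyte and endothelial markers did not have it. That order is thus not particular to cushion markers, and the share of all genes with it was not counted. The part of cushion tissue in the Mgarp values was not tested. With these different bases, the ratio of Mgarp between littermates was 30.5 in litter 1 and 8.44 in litter 2, while the differences in value were 78.6 and 58.1.

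Fam162a (ENSMUSG00000003955, chromosome 16, 36043761 to 36071594) was the most abundant of the 4 in every library, also per kilobase of transcript. It had values of 133, 145 and 134 in controls 1 to 3, 332 in knockout 1, 281 in knockout 2 and 136 in the library labelled knockout 3. The knockouts lay above all controls with a wide gap. Their mean was 2.23 times the control mean of 137 ± 6.79 (SD, n = 3), a log2 difference of 1.15 ± 0.09 (SE), and 0.76 ± 0.29 with the library labelled knockout 3 kept. Littermate ratios were 2.50 in litter 1 and 1.93 in litter 2. Control embryos differed little, with a coefficient of variation of 4.94% beside a median of 5.17% for genes of a like level.

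Higd1a (ENSMUSG00000038412, chromosome 9, 121848563 to 121858362) had a larger ratio between the groups than Fam162a, from a lower level per kilobase. Its values were 50.1, 55.8 and 55.3 in controls 1 to 3, 172 in knockout 1, 149 in knockout 2 and 54.6 in the library labelled knockout 3. Again the knockouts lay above every control. The mean of the pair was 2.99 times the control mean of 53.7 ± 3.12 (SD, n = 3), the log2 difference 1.56 ± 0.09 (SE), and 1.05 ± 0.37 with all 6 libraries. Between littermates the ratio was 3.43 in litter 1 and 2.68 in litter 2.

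Higd2a (ENSMUSG00000025868, chromosome 13, 54590207 to 54591158) did not share the higher level of its paralog. Controls 1 to 3 had 46.5, 44.6 and 39.9, knockout 1 had 41.4, knockout 2 had 33.6, and the value was 42.7 in the library labelled knockout 3. Knockout 1 fell inside the control range and knockout 2 below it, so the groups overlapped. The log2 difference was -0.22 ± 0.12 (SE), and -0.15 ± 0.11 with the library labelled knockout 3 kept. It rested mostly on knockout 2, since without that library it was -0.07 and without knockout 1 it was -0.36.

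Both knockouts thus lay above all 3 controls for 3 of the 4 genes, where 18.1% of all genes in the table did so (17.0% lay below all controls in both). The choice of the 4 genes used this contrast, so nothing follows from that count. For all 4 genes the library labelled knockout 3 fell inside the range of the controls, as 56.1% of all genes did. In each of the 4, knockout 2 was below knockout 1, at 0.811 times its value for Mgarp, 0.844 for Fam162a, 0.870 for Higd1a and 0.813 for Higd2a. Over all genes the median of that ratio, taken on value + 1, was 0.992, and over the 416 genes called higher it was 0.946. Knockout 2 was below knockout 1 for 52.0% of all genes and for 68.0% of those 416.

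**Figure D1:**
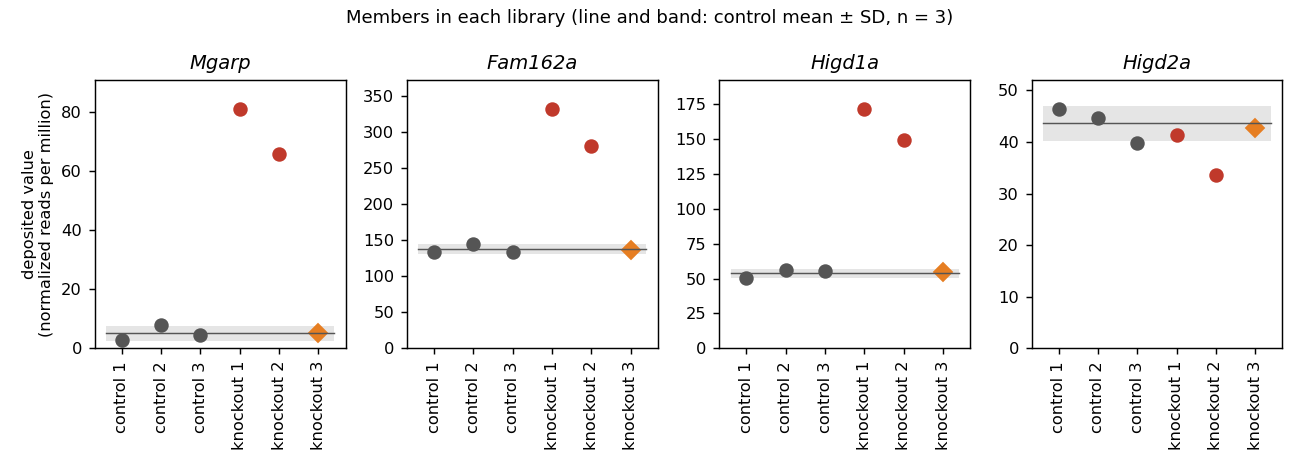
Deposited values (y axis, scaled reads, each panel from 0) of the 4 genes in the 6 libraries (x axis). Grey circles are controls, red circles knockouts 1 and 2, the orange diamond the library labelled knockout 3, and the line and band the control mean ± SD (n = 3). Knockouts 1 and 2 lie above all controls for Mgarp, Fam162a and Higd1a, and Higd2a in knockout 1 (41.4) lies inside the control range.

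Ratios of these genes within a library do not depend on how libraries were scaled. The ratio of Higd1a to Higd2a was 1.08, 1.25 and 1.39 in controls 1 to 3, 4.15 and 4.44 in the knockout pair, and 1.28 in the library labelled knockout 3. Knockout 2, the lower of the pair for both genes, had the higher ratio. The ratio of Mgarp to Fam162a was 0.0200, 0.0538 and 0.0345 in the controls, 0.244 and 0.235 in the knockout pair, and 0.0392 in the library labelled knockout 3. Although its range in controls was wide, this ratio was close in both knockouts. The ratio of Fam162a to Higd1a moved the other way, from 2.56 ± 0.12 in controls (SD, n = 3) to 1.93 and 1.88 in the knockout pair, with 2.48 in the library labelled knockout 3.

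**Figure D2:**
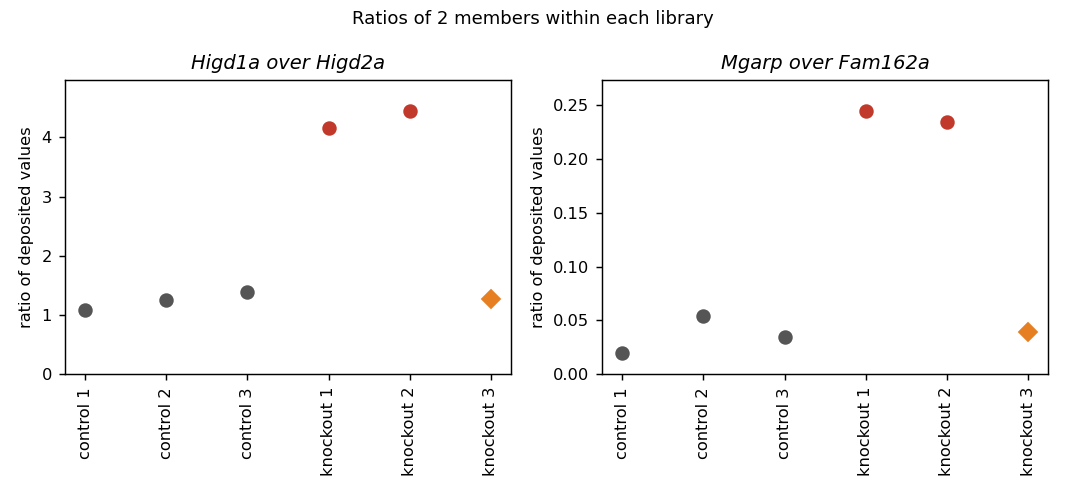
Ratio of deposited values of 2 genes within each library (y axes, from 0), for Higd1a over Higd2a (left) and Mgarp over Fam162a (right). Symbols stand for single libraries, grey for controls, red for knockouts 1 and 2 and orange for the library labelled knockout 3, which lies at 1.28 and 0.0392, inside the range of the controls in both panels.

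Levels of different genes can be compared only per length of transcript. Per kilobase of all annotated exons joined, controls had 162 ± 7.98 for Fam162a, 67.3 ± 5.26 for Higd2a, 17.7 ± 1.03 for Higd1a and 2.43 ± 1.26 for Mgarp (deposited value per kilobase, SD, n = 3). Each neighbouring pair in this order was further apart than its spread. In knockout 1 the levels per kilobase were 391 for Fam162a, 63.9 for Higd2a, 56.5 for Higd1a and 39.3 for Mgarp, and in knockout 2 they were 330.1, 51.9, 49.1 and 31.9. The 3 genes below Fam162a were therefore much closer to each other in the knockouts than in controls. Their order there depended on the length used. Per kilobase of the RefSeq-matched transcript, an alternative added after the data were seen, knockout 1 had 77.0 for Higd1a, 65.9 for Mgarp and 63.9 for Higd2a, and knockout 2 had 66.9, 53.5 and 51.9, while the order in controls stayed as given.

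To see whether whole stretches of chromosome differed, the nearest measured gene on each side of each of the 4 was tested. These 8 neighbours took no part in the choice of genes. None of the 8 passed limma's test over all genes, at an adjusted p under 0.05, where 4.25% of all genes were called, 3.01% higher and 1.24% lower. Beside Mgarp, the complex I subunit gene Ndufc1 had values of 72.3, 75.9 and 77.1 in controls and 77.3 and 70.9 in the knockout pair (log2 difference -0.02 ± 0.08, limma adjusted p = 0.92). Elf2, on its other side, was at -0.05 ± 0.07 (limma adjusted p = 0.8). Ccdc58 starts 90 bases from Fam162a on the opposite strand, so the stretch printed above lies before both genes. Its values were 23.9, 26.9 and 23.1 in controls and 28.4 and 26.3 in the knockout pair, and the groups overlapped (0.15 ± 0.11, limma adjusted p = 0.54). At the other end Wdr5b overlaps Fam162a by 168 bases on the opposite strand, and as the libraries did not mark strand, reads there cannot be told apart. Wdr5b stood at 5.60 ± 1.11 in controls and at 3.23 and 3.15 in the knockout pair (limma adjusted p = 0.15).

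The measured neighbours of Higd1a are distant and low. Hhatl, 56055 bases away, had 2.66 ± 0.32 in controls and 1.13 and 0.701 in the knockout pair (log2 difference -0.94 ± 0.22, limma adjusted p = 0.065), and 1700048O20Rik had 2.05 ± 0.45, then 1.21 and 0.876 (limma adjusted p = 0.27). Between littermates, with litter as a block, Hhatl passed the limma test lower (adjusted p = 0.045, in a range of 0.045 to 0.77 over its alternatives). Nop16, which encodes a nucleolar protein of ribosome assembly, starts 116 bases from Higd2a on the opposite strand. It was at 32.0 ± 0.79 in controls and at 33.6 and 35.8 in the knockout pair (0.11 ± 0.09, limma adjusted p = 0.58). Cltb, a clathrin light chain gene, was at -0.02 ± 0.12 (limma adjusted p = 0.96). With all 6 libraries the 8 neighbours had log2 differences between -0.64 (Hhatl) and 0.13 (Ccdc58), and none passed. No neighbour in the fit of 5 libraries had a log2 difference as high as that of Fam162a, Higd1a or Mgarp, the largest being the 0.15 of Ccdc58.

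**Figure D3:**
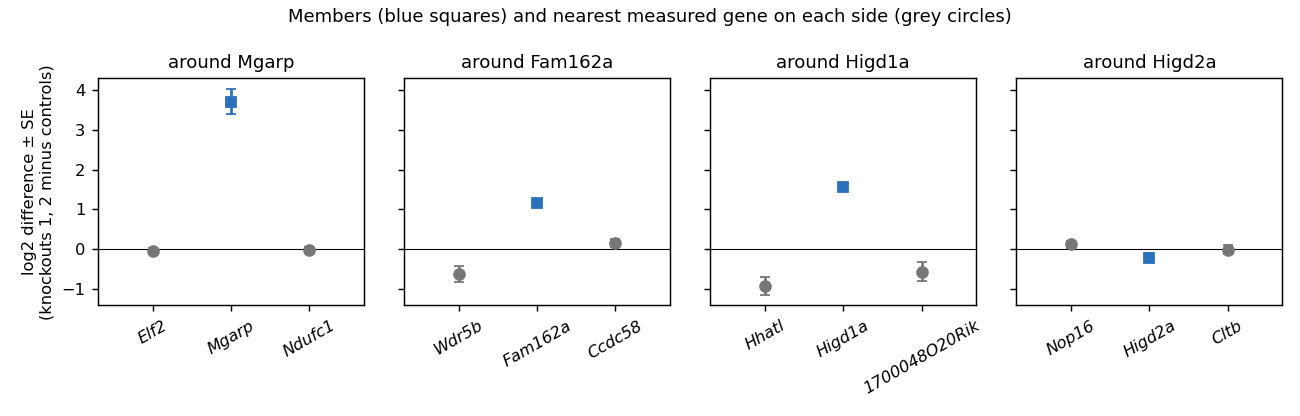
Log2 difference of log2(value + 1), knockouts 1 and 2 minus the 3 controls, with its SE (y axis), for each of the 4 genes (blue squares) and the nearest measured gene on each side (grey circles). The neighbours lie between -0.94 (Hhatl) and 0.15 (Ccdc58).

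Other mitochondrial genes linked to HIF were compared in the same fit, from a list drawn up with earlier results of these libraries known. Of 11 measured members of this list, limma called 9 higher in the knockout pair and 0 lower, and the other 2 were not called. The median log2 difference of the 11 was 1.13. Over all genes 3.01% were called higher, with a median of -0.01. With the library labelled knockout 3 kept, none of the 11 and 0 of all genes passed limma's test in either direction (0.0% called; the unadjusted p was under 0.05 for 859), and the list median was 0.81. Leaving out any one of the other 5 libraries left 9 higher.

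The respiratory chain gene Ndufa4l2, a paralog of a cytochrome oxidase subunit gene, was low in controls and high in both knockouts. Its values were 0.666, 2.60 and 1.68 in controls 1 to 3, 34.3 and 46.1 in the knockout pair and 1.19 in the library labelled knockout 3 (log2 difference 4.01 ± 0.31, limma adjusted p = 0.00051). Hexokinase 2, Hk2, which phosphorylates glucose at the outer mitochondrial membrane, rose from 107, 96.2 and 77.2 to 238 and 235 (1.34 ± 0.13, limma adjusted p = 0.0012). The serine hydroxymethyltransferase Shmt2 rose from 63.0, 67.7 and 58.4 to 123 and 139 (1.04 ± 0.09, limma adjusted p = 0.0009). Lonp1, the matrix protease that degrades a cytochrome oxidase subunit, rose by 0.72 ± 0.07 on the log2 scale, from 132 ± 7.48 to 212 and 224 (limma adjusted p = 0.0021). In the library labelled knockout 3 Hk2, Shmt2 and Lonp1 were at 93.4, 61.8 and 136. With that library kept, the log2 difference was 2.61 for Ndufa4l2, 0.90 for Hk2, 0.68 for Shmt2 and 0.50 for Lonp1, and none passed.

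The other rises in the list were those of Cox4i2, Bnip3, Bnip3l, Pdk1 and Ak4, with log2 differences of 1.05 for Bnip3l to 4.24 for Cox4i2 (0.71 and 2.77 with all 6 libraries). The 2 genes that did not pass were Stoml2, an inner membrane scaffold gene (59.6 ± 3.15 in controls, 63.3 and 60.3 in the knockout pair, limma adjusted p = 0.79), and the mitophagy receptor Fundc1 (28.5 ± 2.05, then 27.6 and 24.4, limma adjusted p = 0.61). The differences of Fam162a and Higd1a lay within the range of the 9, and that of Mgarp lay below those of Cox4i2 and Ndufa4l2 and above the other 7. For 6 of the 9 knockout 2 was below knockout 1, and Ndufa4l2, Shmt2 and Lonp1 were higher in knockout 2. That count is near the share among all genes called higher, of which 68.0% had knockout 2 below knockout 1. The remaining HIG1 domain genes Higd1b, Higd1c and Higd2b were looked for by symbol, and 0 of these 3 were found among the genes measured.

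**Figure D4:**
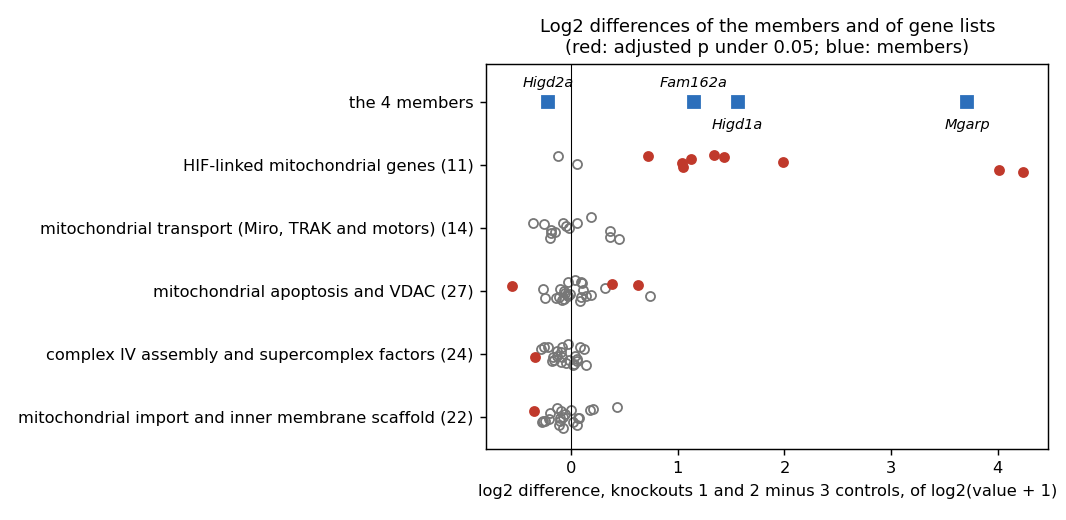
Log2 difference of log2(value + 1), knockouts 1 and 2 minus the 3 controls (x axis), for the 4 genes (blue squares, not tested) and for each measured gene of 5 lists (circles, with the number of measured genes, spread vertically for legibility). Filled red circles have an adjusted p under 0.05 in limma, 9 of them among the 11 HIF-linked mitochondrial genes and 5 among the other 4 lists.

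Genes for partners of Mgarp in mitochondrial transport formed a further list. Of the 14 genes for Miro proteins, TRAK adaptors, kinesins and related factors, 0 were higher and 0 lower by limma, beside 3.01% and 1.24% of all genes, so the count is near that of genes at large. The list median was -0.06. Those with the smallest p were the kinesin gene Kif1b (248 ± 21.5 in controls, 210 and 206 in the knockout pair, limma adjusted p = 0.17), the adaptor gene Trak2 (215 ± 11.3, then 183 and 190, limma adjusted p = 0.2) and Disc1 (3.07 ± 0.64, then 4.53 and 4.47, limma adjusted p = 0.31). Each of the 3 lay outside the range of the controls in both knockouts, as 35.1% of all genes did in one direction or the other.

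Fam162a is known to bind a voltage-dependent anion channel, and genes of these channels and of mitochondrial cell death formed the next list. Of 27 members 2 rose and 1 fell, beside 3.01% and 1.24% of all genes, with a median of -0.03. The channel gene Vdac1 rose from 568, 554 and 580 in controls to 785 and 695 in the knockout pair (0.38 ± 0.08, limma adjusted p = 0.047). Bok, a pro-death BCL2 family gene, rose from 16.8 ± 1.97 to 24.4 and 28.3 (0.62 ± 0.13, limma adjusted p = 0.047). Ppif, which encodes the cyclophilin D regulator of the permeability pore, fell from 114 ± 9.96 to 79.8 and 73.9 (-0.56 ± 0.09, limma adjusted p = 0.015). The calls of Vdac1 and Bok were lost when any one of the 5 libraries was left out (adjusted p of 0.053 to 0.2 and 0.063 to 0.21), and that of Ppif without control 2, knockout 1 or knockout 2 (0.061 to 0.088). With all 6 libraries the log2 differences were 0.26 for Vdac1, 0.36 for Bok and -0.35 for Ppif.

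Among 24 assembly factors of cytochrome oxidase and supercomplexes, the field of Higd1a and Higd2a, 0 rose and 1 fell, with a median of -0.09. Both this count and that of the next list are near the 3.01% and 1.24% of all genes called higher and lower. The one that fell was Lrpprc, an RNA-binding protein gene that serves mitochondrial transcripts (177 ± 10.2 to 143 and 137, limma adjusted p = 0.048). Cox7a2l, a supercomplex factor gene, was at 197 ± 13.8 in controls and 179 and 158 in the knockout pair (limma adjusted p = 0.23), and the cytochrome oxidase factor gene Cmc2 at 26.4 ± 1.90, then 21.74 and 21.03 (0.21). In the list of protein import and inner membrane scaffold genes, 0 of 22 rose and 1 fell, with a median of -0.09. Here the chaperonin gene Hspd1 went from 823 ± 28.2 to 662 and 626 (limma adjusted p = 0.049), while Tomm6, a small subunit of the outer membrane translocase, stood at 50.4 ± 6.09 and at 70.5 and 65.7 (limma adjusted p = 0.072; 0.046 between littermates with litter as a block, where 1 gene of the list was called higher, in a range of 0.03 to 0.77 over its alternatives). The scaffold gene Chchd3 was at 145 ± 6.20, then 127 and 117 (limma adjusted p = 0.12). Both falls were lost when any one of the 5 libraries was left out (adjusted p of 0.10 to 0.17 for Lrpprc and 0.11 to 0.17 for Hspd1), and with size factors of DESeq2 as the scaling (0.051 and 0.052). That of Lrpprc was also lost with edgeR (0.062). With all 6 libraries the log2 differences were -0.22 for Lrpprc and -0.25 for Hspd1.

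Ndufa4l2 and Cox4i2 are known in pericytes too, so markers of that cell type were set beside them. The counts of markers that rose stand beside 3.01% of all genes called higher. Of 7 measured pericyte markers 1 rose, Notch3, none was at 0, and their summed level was 666 to 825 in controls, 887 and 838 in the knockout pair and 799.6 in the library labelled knockout 3. Mcam made up the largest part of that sum, at 337 to 446 in controls and 477 and 440 in the knockout pair. Abcc9 came next, at 189 to 219 in controls and 238 and 197 in the knockout pair. The median log2 difference of the pericyte markers was 0.22, and 6 of the 7 were above 0. The pericyte gene Rgs5 was low throughout, at 0.777 to 1.85 in controls and 1.37 and 1.14 in the knockout pair. Of 7 epicardial markers 3 rose (Wt1, Krt19 and Upk1b), and none was at 0. The summed level of the 7 went from 299.8 to 372 in controls to 723 and 618, with 348 in the library labelled knockout 3. Krt19 made up the largest part of that sum in the knockout pair, at 268 and 210 beside 35.2 to 49.2 in controls. Aldh1a2, Tbx18, Upk3b and Msln were not called. Of these, Upk3b was at 83.7 to 125 in controls and 178 and 156 in the knockout pair (limma adjusted p = 0.057). All 7 epicardial log2 differences were above 0, with a median of 0.67, beside -0.01 over all genes. Of 7 endothelial markers 1 rose, Emcn, none was at 0, and the sum was 1133 to 1154 in controls and 1315 and 1331 in the knockout pair. Their median log2 difference was 0.21, and 6 of the 7 were above 0, as 6670 of all 13843 genes were. Esam, Pecam1, Cdh5, Tie1, Emcn and Kdr lay above all controls in both knockouts, as 18.1% of all genes did, and Tek did not. The part of these cell types in the levels of the 4 genes was not tested.

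The genes whose pattern over the 6 libraries was most like that of each of the 4 are named by Pearson's r of log2(value + 1), as a description. All 6 points share the difference between knockouts 1 and 2 and the rest, which sets much of each r. For Mgarp they were the VEGF receptor gene Flt1 (r = 0.998), Cox4i2 (0.997) and the ankyrin repeat gene Ankrd37 (0.997). The change of Flt1 was far smaller, from 77.7, 85.2 and 81.1 in controls to 113 and 112.5 in the knockout pair, in the same order of controls as Mgarp. For Fam162a they were the oligosaccharyltransferase gene Rpn2 (0.999), Fam169a (0.998) and Epm2a, the glycogen phosphatase laforin (0.998). For Higd1a they were Eid1 (1.000 when rounded), the transporter gene Abcc1 (0.999) and Ero1l, which encodes an oxidase of the endoplasmic reticulum (0.998). Ero1l stood at 105, 107 and 105 in controls, 238 and 215 in the knockout pair and 108 in the library labelled knockout 3. For Higd2a the likest were Tmem17 (0.987), the alpha-catenin gene Ctnna3 (0.981) and Gpr155 (0.980). None of these 3 passed limma's test (adjusted p of 0.31, 0.44 and 0.38), and each was lowest in knockout 2, as Higd2a was.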

How the data were processed

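RNA of 3 control ventricles and 3 labelled Vhl knockout was sequenced. Per the submitters' processing notes, the authors used CASAVA 1.8.2, cutadapt 1.3 and RSEM 1.2.3 with GRCm38; for annotation release, gene filter and scaling, the sources used here give nothing. The authors deposited a normalized signal per gene. In each library 100% of values were whole multiples of 1 step (tolerance 0.01 reads), which gave back whole reads. Each of the 13843 genes reached a value of 1 in 3 or more libraries. Identifiers were matched to GENCODE M21 (GRCm38) and, where absent there, to a separate list of gene names, which together named 13675. RSEM shares out reads of close copies, so such values are uncertain. Promoter sequences are RefSeq's (GRCm38.p6).

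The test was limma 3.58.1 with trend (R 4.3.3) on log2(value + 1), Benjamini-Hochberg over all genes, threshold 0.05, for knockouts 1 and 2 against 3 controls and for all 6 libraries. On simulated counts for the 5-library comparison (13843 genes), 200 genes were changed, drawn from those with a mean value of at least 5. Of genes changed by 1 on the log2 scale 87% were recovered, and of those changed by 2 99%, with 17 false calls. Recovery of changed genes below that level was not simulated. Alternatives included edgeR 4.0.16 and DESeq2 1.42.0 on recovered reads. Litters 1 and 2 pair the libraries, per the labels. Deviations from the means of the 2 labelled groups correlated at 0.20 and 0.28 within these litters. For the libraries numbered 3, which the labels put in different litters, the correlation was 0.01. The knockout mean included the library labelled knockout 3, so these correlations carry part of its difference from knockouts 1 and 2. P-values measure the spread between single embryos. The members, gene lists and contrast were chosen with earlier results of these data known. Named were the members, Vhl and Hif1a as label checks, nearest measured neighbours and all measured HIF-linked genes. Up to 3 genes per other list with the smallest p were also named. So were the 3 genes most like each member (mean value of at least 5). Single markers named, such as Twist1, Postn, Rgs5, Myh7 and those that passed, were chosen after their values were seen. Of the other marker lists, atrial markers had 1 of 5 higher (Myl7) by limma. Erythroid (8), macrophage (6) and cushion mesenchyme (6) markers had 0 higher and 0 lower. These counts stand beside 3.01% of all genes called higher and 1.24% lower. The summed erythroid level varied between embryos, at 5310 to 11685 in controls and 5626 and 11446 in knockouts 1 and 2. For cushion markers the sum was 717 to 1022 in controls and 1552 and 779 in knockouts 1 and 2.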

Additional observations from a re-analysis of the deposited data

How the results depend on the processing

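Knockouts 1 and 2 against controls gave 416 genes higher and 172 lower. Leaving out single libraries gave 146 to 297 higher and 44 to 90 lower (without control 1, 297 and 90; control 2, 219 and 60; control 3, 259 and 83; knockout 1, 146 and 44; knockout 2, 236 and 55). With the library labelled knockout 3 kept, 0 and 0 genes passed. Without it, DESeq2 gave 554 higher and 274 lower, and litter as a replicate block (litters 1 and 2 alone, where the spread is mostly pooled over genes) gave 681 and 444. With all 6 libraries limma called 0 and 0, edgeR 0 and 0, and DESeq2 7 and 4. Single libraries left out of the 6 gave 0 to 416 higher and 0 to 172 lower. The upper values were those without knockout 3 (without knockout 1 or 2, 1 higher). The replicate block gave 669 and 459, but control 3 and knockout 3 are each alone in their labelled litter. Their litter terms absorb both libraries, so this contrast too rests on litters 1 and 2 and takes nothing from knockout 3.

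Without single libraries of the 5, the log2 difference ran from 3.40 to 4.03 for Mgarp, 1.03 to 1.27 for Fam162a, 1.46 to 1.66 for Higd1a and -0.36 to -0.07 for Higd2a. With the library labelled knockout 3 kept it was 2.53, 0.76, 1.05 and -0.15, and 0 instead of 9 HIF-linked mitochondrial genes passed. Under the replicate block 1 neighbour, Hhatl, was lower, and apart from Hhatl and Tomm6 no call of a named gene changed. No difference of the 4 genes or of another called gene changed sign under the alternatives run. Over the named genes other than the 4, 463 values under alternatives kept their side of the threshold, 57 lost a call and 4 gained one. The causes were not tested. Depth limits Mgarp most, with 24 to 93 reads in the controls.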
